A study of Homo sapiens with 4 samples.

Results

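Molecular motors turn ATP into movement along the cytoskeleton, and 72 of their genes were read here in SH-SY5Y cells exposed to origamicin. The genes were chosen by symbol: those starting with DYNC, DYNL or DNAH, or with KIF, KLC, MYO or MYH followed by a digit, without KIF20A. They are 72 of the 14884 genes with a named probe set. A gene with several probe sets was represented by the one with the highest mean over the 4 arrays. The 72 comprise 38 kinesin heavy chains, 4 kinesin light chains, 5 dynein subunits or light chains, 22 unconventional myosins and 3 antisense RNAs that carry a motor gene's name (KIF9-AS1, MYO16-AS1, DNAH8-AS1). The heavy chain of cytoplasmic dynein, the axonemal dynein heavy chains, the class II myosins (MYH genes) and MYO5A were not analysed here.

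SH-SY5Y is an established human neuroblastoma line of sympathetic lineage. The submitters describe origamicin as an inhibitor of protein disulfide isomerase, an enzyme of the endoplasmic reticulum that forms and rearranges disulfide bonds. One group of 2 arrays came from cells given origamicin at 30 µM for 24 h, and the other group of 2 from cells given methanol, the solvent, for 24 h (mock). Both groups shared the line, the serum-containing medium and the labelling of total RNA as biotinylated cDNA. The study therefore rests on 1 line, 1 dose and 1 time. The labels number biological replicates but do not tell whether these were separate passages, so p-values cover the spread between these arrays and no more. RNA was taken from whole cultures, and fewer cells of a type cannot be told apart from less RNA per cell.

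Kinesins mostly walk towards the plus ends of microtubules, carrying vesicles and organelles outward along axons or moving chromosomes and spindle poles in mitosis. Dyneins walk towards the minus ends, and myosins pull on or move along actin filaments. Neurons depend on these motors because their cargo is made in the cell body and used far away in the axon, while dividing neuroblastoma cells also need the mitotic kinesins.

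Expression is given as the authors' deposited log2 values. Differences are origamicin minus mock on that scale, each with the standard error (SE) of a limma fit over all genes. Adjusted p-values (Benjamini-Hochberg) cover the 11883 genes whose mean lay above the 40th percentile of all probe sets (3.82). That filter kept 64 motor genes and left out 8 as dim: DYNLT2, DYNLT5, MYO16, MYO3B, MYO1A, MYO3A, MYO16-AS1 and DNAH8-AS1. Differences of the 8 ran from -0.31 (MYO3A) to 0.18 (DNAH8-AS1). Brightness depends on the probes, so levels of different genes are not compared. Across genes, r was 0.995 between the mock arrays, 0.994 between the treated arrays and 0.991 to 0.992 across groups.

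KIF1C, a kinesin that carries dense-core vesicles and other cargo and takes part in transport between Golgi and endoplasmic reticulum, showed the largest difference of the 64 motor genes, 1.65-fold higher after origamicin. MYO9A, an unconventional myosin, was 1.35-fold higher, and KIF16B, a kinesin that binds early endosomes, was 1.32-fold higher. No motor gene passed an adjusted p of 0.05 in the limma fit with a single prior variance, where 0% of all genes tested passed. KIF1C was the one motor gene with an adjusted p under 0.1 (0.0953), a limit that 0.446% of all genes passed. When limma's variance prior was allowed to follow intensity, KIF1C (adjusted p = 0.00415), MYO9A (0.0153) and KIF16B (0.0379) rose and none fell. These 3 are 4.69% of the motor genes, beside 4.3% of all genes called by that fit (2.14% higher and 2.16% lower). The share over both directions was close to that of all genes. Treated and mock values did not overlap for 35 of the 64 motor genes (54.7%), beside 48.6% of all genes tested.

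KIF1C stood at 6.78 and 6.77 on the mock arrays and at 7.53 and 7.47 on the origamicin arrays. The groups lay far apart compared with the gap inside either of them. The difference was 0.72 ± 0.06 (95% interval 0.55 to 0.90). By p-value KIF1C ranked 19 among the 11883 genes tested. In the fit with an intensity trend its call held when any 1 array was left out (limma adjusted p from 0.00954 to 0.0431).

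MYO9A stood at 7.68 and 7.65 in mock and at 8.13 and 8.06 in treated cells, without overlap. Its difference was 0.43 ± 0.07 (95% interval 0.25 to 0.60, limma adjusted p = 0.156). KIF16B stood at 6.98 and 6.92 in mock and at 7.42 and 7.29 in treated cells. Here too both treated values lay above both mock values, and the difference was 0.40 ± 0.08 (95% interval 0.19 to 0.61, limma adjusted p = 0.174). The trend-fit calls of MYO9A and KIF16B were lost without mock replicate 1, mock replicate 2 or origamicin replicate 1. Without those arrays the limma adjusted p ran from 0.0502 to 0.0994 for MYO9A and from 0.122 to 0.203 for KIF16B.

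**Figure D1:**
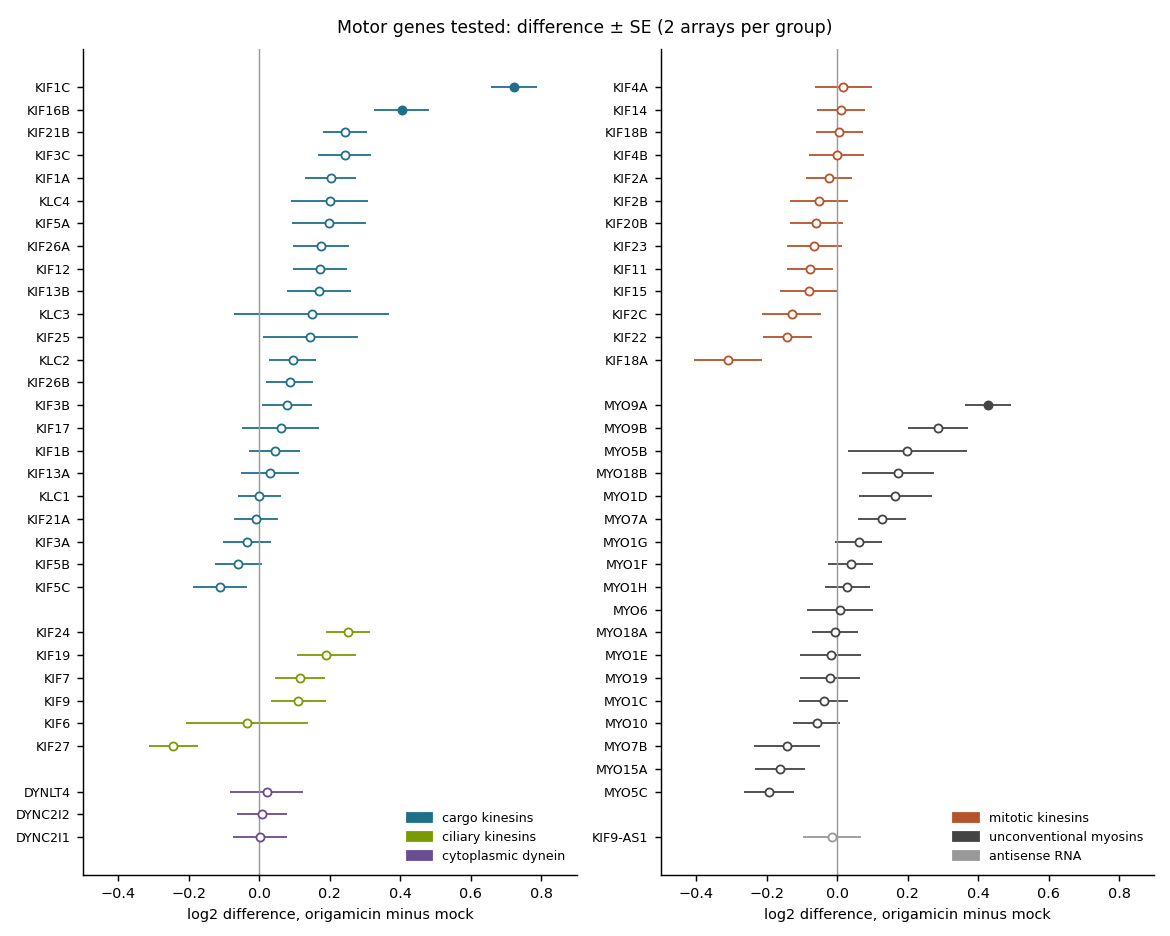
Log2 difference (origamicin minus mock, x axis) of each of the 64 motor genes tested, by role. Points are differences and bars ± SE from limma over 2 arrays per group. Filled points passed an adjusted p of 0.05 in the fit with an intensity trend: KIF1C at 0.72, MYO9A at 0.43 and KIF16B at 0.40.

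The promoters of these 3 genes and of KIF18A, the motor gene tested with the largest negative difference, are shown so that the sequence before the start of each gene can be read beside its change. Of the 72 genes, 62 matched RefSeq's promoter table by symbol. The 250 bases before the start are printed 5′ to 3′ on build GRCh38.p14. KIF1C lies at chr17:4997700-4997949 on the plus strand, KIF16B at chr20:16573449-16573698 on the minus strand, MYO9A at chr15:72118151-72118400 on the minus strand and KIF18A at chr11:28108157-28108406 on the minus strand. Capitals mark matches, on either strand, to GGGCGG, the core of the GC box, to CCAAT, the CCAAT box, and to TTTGAA, a core of the cell cycle homology region. A GC box on the opposite strand is read as CCGCCC. These 3 motifs do not overlap one another in the windows shown.
KIF1C: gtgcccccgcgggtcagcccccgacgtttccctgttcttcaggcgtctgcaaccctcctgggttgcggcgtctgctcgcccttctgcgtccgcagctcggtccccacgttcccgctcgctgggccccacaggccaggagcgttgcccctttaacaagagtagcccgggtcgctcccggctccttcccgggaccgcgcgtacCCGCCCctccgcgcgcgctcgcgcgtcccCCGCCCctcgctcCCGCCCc
KIF16B: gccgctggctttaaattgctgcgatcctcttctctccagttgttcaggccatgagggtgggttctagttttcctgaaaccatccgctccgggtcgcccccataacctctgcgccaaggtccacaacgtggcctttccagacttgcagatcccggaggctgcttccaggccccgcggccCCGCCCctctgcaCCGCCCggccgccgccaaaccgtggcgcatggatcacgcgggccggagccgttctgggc
MYO9A: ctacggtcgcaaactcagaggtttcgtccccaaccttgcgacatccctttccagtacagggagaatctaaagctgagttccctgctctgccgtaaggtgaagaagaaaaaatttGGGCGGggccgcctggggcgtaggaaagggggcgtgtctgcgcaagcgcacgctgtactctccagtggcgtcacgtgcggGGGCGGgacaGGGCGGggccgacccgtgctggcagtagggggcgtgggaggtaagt
KIF18A: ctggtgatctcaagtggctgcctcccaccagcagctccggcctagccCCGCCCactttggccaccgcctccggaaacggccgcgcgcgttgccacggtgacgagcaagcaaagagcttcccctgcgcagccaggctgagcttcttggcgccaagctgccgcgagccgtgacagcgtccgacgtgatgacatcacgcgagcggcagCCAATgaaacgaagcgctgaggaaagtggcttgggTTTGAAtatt
The 3 promoters of the higher genes hold GC boxes (3, 2 and 3 matches) and neither CCAAT nor TTTGAA. The KIF18A window holds 1 GC box, a CCAAT match starting 45 bases before the start and a TTTGAA match starting 10 bases before it. GC boxes are common: GGGCGG occurs in 82.6% of the cargo kinesin promoters, 85.7% of the mitotic kinesin promoters and 66.7% of the unconventional myosin promoters. Whether it is more frequent among the higher genes was not tested. Of all 35116 RefSeq windows of this length, 42.6% hold GGGCGG, 32.0% hold CCAAT and 13.3% hold TTTGAA. Among the 14 listed promoters of the 13 mitotic kinesins, 9 hold CCAAT and 5 hold TTTGAA. For the 23 promoters of 17 cargo kinesins these counts are 7 and 1. CCAAT and TTTGAA occur together in 4 promoters of mitotic kinesins (KIF11, KIF18A, KIF23 and KIF4A), in promoters of KIF5B, DYNC2I2, MYO16 and DNAH8-AS1, and in 4.7% of all windows. A match describes the letters and does not show a bound factor.

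The cargo kinesins, read here through 23 genes with the kinesin light chains, were mostly a little higher after origamicin. Of the 23, 18 stood above 0 and 5 below, with a median of 0.14, where 47.8% of all genes tested stood above 0 and their median was -0.01. The cargo median was 0.14 without mock replicate 1, 0.10 without mock replicate 2, 0.08 without origamicin replicate 1 and 0.11 without origamicin replicate 2. Treated values lay above mock values without overlap for 13 of the 23 (56.5%), beside 22.7% of all genes. At an unadjusted p under 0.05 there were 5 (21.7%), all higher, beside 7.99% of all genes called on that side. KIF1C and KIF16B kept such a p when any 1 array was left out, and KIF1A lost it each time. KIF21B lost it without mock replicate 1, mock replicate 2 or origamicin replicate 2. KIF3C lost it without mock replicate 2 or either treated array. Other cargo kinesins entered in some of these fits. With both directions together, 11 of the 64 motor genes (17.2%) had such a p, close to the 16.4% of all genes. Of the 11, MYO5C also lost that p when any 1 array was left out. KIF18A, KIF24 and KIF27 lost it without either mock array or origamicin replicate 1. MYO9B lost it without mock replicate 2 or either treated array. The cargo list also holds KIF12, KIF25, KIF26A and KIF26B, whose role as carriers is less settled. All of them stood above 0 (0.17, 0.14, 0.17 and 0.09), so they add to the 18. KIF12, KIF26A and KIF26B are also among the 13 without overlap.

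KIF21B, a neuronal kinesin that also restrains microtubule growth, stood at 6.42 on both mock arrays and at 6.65 and 6.67 on the treated arrays. The arrays of each group nearly coincided, and the difference was 0.24 ± 0.06 (limma adjusted p = 0.204). KIF3C, a neuronal subunit of heteromeric kinesins, stood at 9.28 and 9.18 in mock and at 9.50 and 9.43 in treated cells. Its difference was 0.24 ± 0.07 (limma adjusted p = 0.247), with no overlap. KIF1A, which carries synaptic vesicle precursors along axons, was the fifth cargo kinesin with an unadjusted p under 0.05, at 0.20 ± 0.07. It went from 8.68 and 8.57 in mock to 8.83 and 8.82 in treated cells.

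Other kinesins of the family of KIF1C that were listed with the cargo kinesins varied. KIF16B (0.40) and KIF1A (0.20), described above, belong to it, and the interval of KIF16B overlaps that of KIF1C. KIF1B, which carries mitochondria and synaptic vesicle precursors, stood at 0.04 ± 0.07 (95% interval -0.15 to 0.24), and a second, dimmer named probe set of it stood at -0.08. KIF13A, a carrier of recycling endosomes, stood at 0.03 ± 0.08 (95% interval -0.19 to 0.25) and KIF13B at 0.17 ± 0.09 (95% interval -0.07 to 0.41). The upper ends of these 3 intervals, and of the KIF1A interval (0.01 to 0.40), lie below 0.55, the lower end of the KIF1C interval. The differences between KIF1C and its relatives were not themselves tested.

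Conventional kinesin, the main anterograde motor of axons, is built from KIF5 heavy chains and KLC light chains. Its heavy chains went different ways by small amounts. KIF5A stood at 0.20 ± 0.11 (95% interval -0.08 to 0.48), KIF5B at -0.06 ± 0.07 (-0.24 to 0.12) and KIF5C at -0.11 ± 0.08 (-0.32 to 0.09). KIF5C values ran from 9.40 to 9.44 in mock and from 9.25 to 9.38 in treated cells, so the groups did not overlap although the interval spans 0. The light chain KLC1 stood at 7.68 and 7.66 in mock and at 7.67 on both treated arrays (95% interval of the difference -0.16 to 0.16). KLC2 (0.10 ± 0.07) and KLC4 (0.20 ± 0.11) were above 0, and a dimmer KLC2 probe set stood at 0.28. KLC3 was too variable to place (5.23 and 5.86 in mock).

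The heteromeric kinesin subunits KIF3A and KIF3B, which drive anterograde transport inside cilia, stood at -0.04 ± 0.07 and 0.08 ± 0.07. KIF21A, a relative of KIF21B, stood at -0.01 ± 0.06 (95% interval -0.17 to 0.15), beside 0.24 for KIF21B. The remaining cargo kinesins had unadjusted p-values above 0.05: KIF26A at 0.17, KIF12 at 0.17, KIF25 at 0.14, KIF26B at 0.09 and KIF17 at 0.06.

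**Figure D2:**
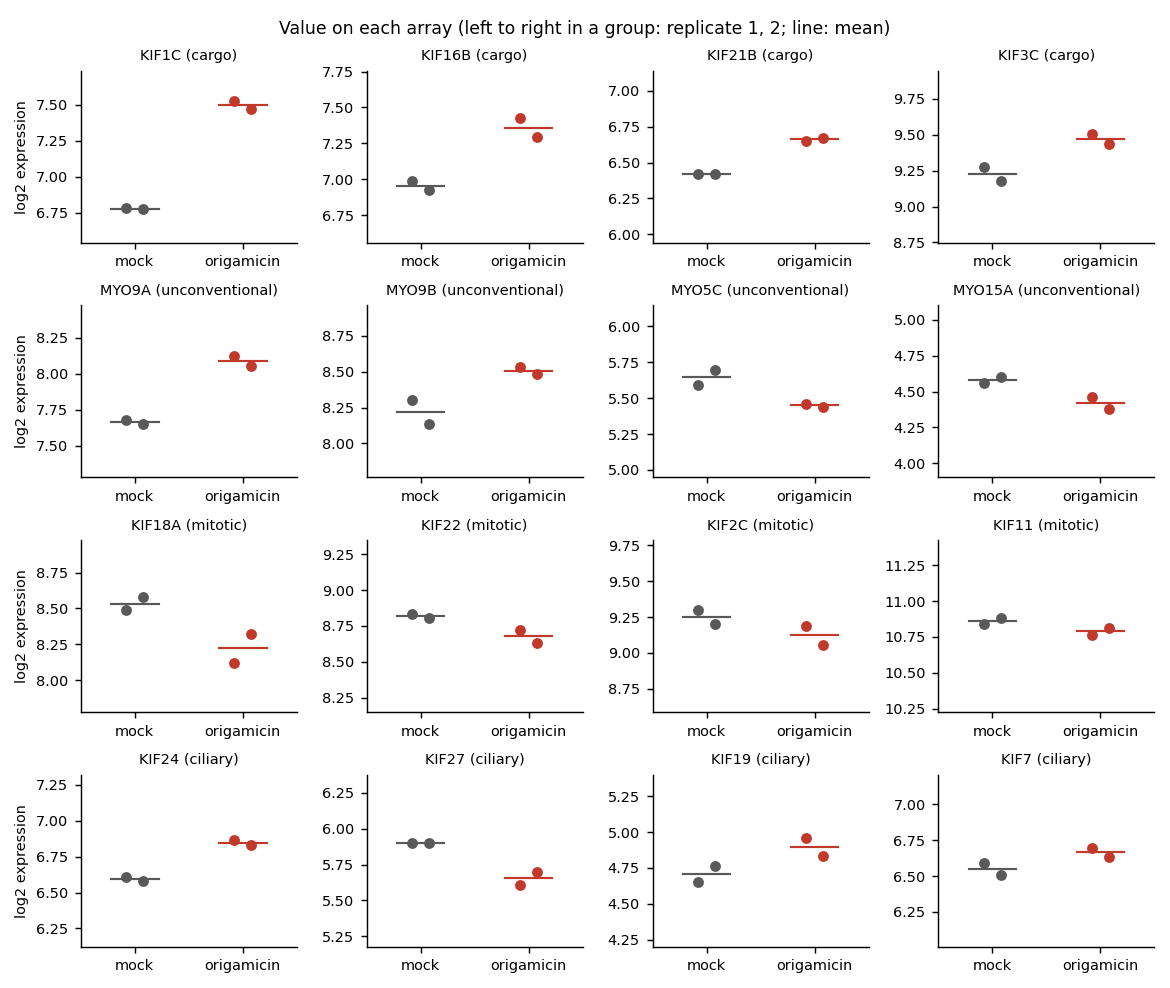
Log2 expression (y axis, the same span of 1.2 in each panel) on the 2 mock and 2 origamicin arrays for 16 motor genes. Dots are arrays and lines are group means. KIF1C moves from 6.78 and 6.77 to 7.53 and 7.47, and KIF18A from 8.49 and 8.58 to 8.12 and 8.32.

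Mitotic kinesins lay slightly lower. KIF18A, which dampens chromosome movement at the spindle centre, had the largest negative difference of any motor gene tested. It stood at 8.49 and 8.58 in mock and at 8.12 and 8.32 in treated cells. The treated arrays were lower without overlap but differed from each other by more than the mock arrays did. The difference was -0.31 ± 0.10 (limma adjusted p = 0.252, and 0.079 with an intensity trend). With 1 array left out, the trend fit called KIF18A only without origamicin replicate 2, the treated array nearer to mock. In the fit with a single prior variance, KIF18A lost its unadjusted p under 0.05 without either mock array or origamicin replicate 1. Of the 13 mitotic kinesins, 10 were below 0 and 3 above, with a median of -0.06, where 52.1% of all genes were below 0. The count was 8 of 13 after quantile normalization and 12 with equal array medians. Only KIF18A had an unadjusted p under 0.05 (7.69% of the 13, beside 8.42% of all genes called on the lower side). These 13 therefore gave no larger share of such genes than the rest of the array. KIF20A, left out by the choice of genes, and kinesins without a digit after KIF, such as KIFC1, are not among the 13.

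KIF22, a chromokinesin that pushes chromosome arms towards the spindle equator, stood at 8.83 and 8.81 in mock and at 8.72 and 8.63 in treated cells. Its difference was -0.14 ± 0.07 (limma adjusted p = 0.404). KIF2C, which removes tubulin from microtubule ends at centromeres, stood at -0.13 ± 0.08, from 9.30 and 9.20 in mock to 9.19 and 9.06 in treated cells. KIF11, which slides spindle microtubules apart to separate the poles, stood at -0.08 ± 0.07, from 10.84 and 10.88 to 10.76 and 10.81. These were, with KIF18A, the 4 mitotic kinesins whose groups did not overlap (30.8%, beside 25.8% of all genes on the lower side).

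The other mitotic kinesins overlapped between groups. KIF15, which can back up KIF11, stood at -0.08, KIF23, a subunit of the central spindle complex, at -0.06, KIF20B at -0.06, KIF2B at -0.05 and KIF2A at -0.02. KIF14, which acts in cytokinesis, and KIF18B stood at 0.01 and 0.0055, the chromokinesin KIF4A at 0.02 and its copy KIF4B at -0.0017. KIF4A and KIF4B are near-identical copies, so their probe sets can read each other's RNA and both values are uncertain.

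**Figure D3:**
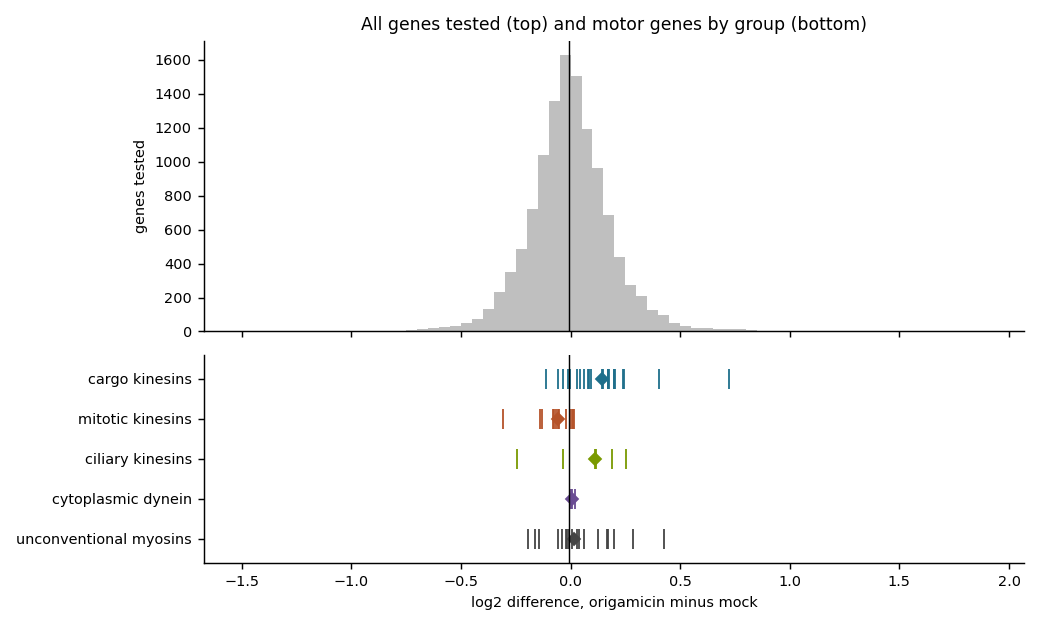
Log2 difference (origamicin minus mock, x axis) of all 11883 genes tested (histogram, y axis in genes) and of the motor genes by role (ticks, diamonds at the group medians). The vertical line marks the median of all genes, -0.01. The cargo kinesin median is 0.14 and the mitotic kinesin median is -0.06.

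Kinesins of cilia were read through 6 genes, 4 above 0 and 2 below. KIF24, a microtubule depolymerase that restrains cilium formation, stood at 6.61 and 6.58 in mock and at 6.86 and 6.83 in treated cells. Its difference was 0.25 ± 0.06 (limma adjusted p = 0.203). KIF27, a relative of the Hedgehog regulator KIF7, went the other way, from 5.90 on both mock arrays to 5.61 and 5.70, a difference of -0.24 ± 0.07 (limma adjusted p = 0.23).

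The groups did not overlap for KIF24 or KIF27, and neither gene passed the trend fit. The dimmer KIF27 probe sets, with means of 3.14 and 2.13 below the filter, stood at -0.16 and -0.07. With probe set means, KIF27 was not among the motor genes with an unadjusted p under 0.05. KIF19, which sets the length of motile cilia, stood at 0.19 ± 0.08, from 4.65 and 4.76 to 4.96 and 4.83, and KIF7 at 0.12 ± 0.07, from 6.59 and 6.51 to 6.69 and 6.63. KIF9 stood at 0.11 ± 0.08, and the antisense RNA KIF9-AS1 at -0.01 ± 0.08. KIF6 stood at -0.03 ± 0.17, on values near the filter (3.65 to 4.05). Of 10 markers of multiciliated cells, 9 had a named probe set and all 9 were tested. None had an unadjusted p under 0.05, beside 16.4% of all genes tested. The summed level of the 9 (log2 of the sum of unlogged values) ran from 8.51 to 8.52 in mock and from 8.44 to 8.51 in treated cells. Its part in the values of the ciliary kinesins was not tested.

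Dynein was covered by few genes. DYNC2I1 and DYNC2I2, intermediate chains of the dynein that returns cargo from the tips of cilia, had almost equal means in both groups. DYNC2I1 stood at 7.64 and 7.72 in mock and at 7.74 and 7.62 in treated cells (95% interval of the difference -0.21 to 0.21). DYNC2I2 stood at 8.75 and 8.70 in mock and at 8.69 and 8.77 in treated cells (-0.18 to 0.20). DYNLT4, a light chain of the Tctex family, stood at 4.78 and 5.02 in mock and at 4.96 and 4.89 in treated cells (-0.26 to 0.30). In all 3 the groups overlapped, and the intervals leave room for differences from -0.26 to 0.30.

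Of the 18 unconventional myosins tested, 10 were above 0 and 8 below, with a median of 0.02. MYO9A and its close relative MYO9B were at the top. MYO9B stood at 8.30 and 8.14 in mock and at 8.53 and 8.48 in treated cells, a difference of 0.29 ± 0.08 (limma adjusted p = 0.236, and 0.0689 with an intensity trend). MYO9A and MYO9B were the 2 of the 18 that were higher at an unadjusted p under 0.05 (11.1%), near the 7.99% of all genes.

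At the other end was MYO5C, a carrier of secretory vesicles best known from glandular cells. It stood at 5.59 and 5.70 in mock and at 5.46 and 5.44 in treated cells, a difference of -0.19 ± 0.07 (limma adjusted p = 0.301). MYO15A, which delivers proteins to the tips of hair cell stereocilia, stood at -0.16 ± 0.07, from 4.56 and 4.60 to 4.46 and 4.38. The groups did not overlap for either gene, and neither passed the trend fit.

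The brighter myosins of broad function differed little. The membrane-linked class I myosins MYO1C, MYO1D and MYO1E stood at -0.04 ± 0.07, 0.16 ± 0.10 and -0.02 ± 0.09. MYO6, which walks towards the minus end of actin, stood at 0.01 ± 0.09 (95% interval -0.24 to 0.26), MYO19, a motor on mitochondria, at -0.02 ± 0.08, MYO10, which builds filopodia, at -0.06 ± 0.07, and MYO18A at -0.01 ± 0.07. Among the other myosins with low signals, MYO7B stood at -0.14 and MYO5B at 0.20, with MYO18B at 0.17, MYO7A at 0.13, MYO1G at 0.06, MYO1F at 0.04 and MYO1H at 0.03. Of 14 muscle markers, 5 had a named probe set and 4 were tested. Only DES, an intermediate filament gene, had an unadjusted p under 0.05 (0.74 ± 0.21, limma adjusted p = 0.23). MYOG stood at -0.16, MYOD1 at -0.01 and TTN at 0.00053, so 2 of the 4 were above 0 and 2 below. The summed level of the 4 ran from 7.39 to 7.53 in mock and from 7.71 to 7.89 in treated cells. With these values, that higher sum does not show the muscle markers rising together. The part of the summed level in the myosin values was not tested.

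The proteins that motors work with were read through 5 lists, of whose 102 genes 60 had a named probe set and 56 were tested. None passed an adjusted p of 0.05 with a single prior variance in limma. At an unadjusted p under 0.05, 4 of the 56 were higher and 4 lower, beside 7.99% and 8.42% of all genes, so partners were no more frequent among such genes than the rest of the array. With an intensity trend 2 of the 56 passed, beside 4.3% of all genes. RHOT1, the mitochondrial GTPase that couples mitochondria to kinesin and dynein, fell by 0.24 on the log2 scale in that fit (limma adjusted p = 0.035), and the kinase CDC42BPA, which phosphorylates myosin light chains, rose by 0.28 (limma adjusted p = 0.025). Both calls were lost when any 1 array was left out.

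RHOT1 stood at 9.89 and 9.87 in mock and at 9.61 and 9.67 in treated cells. CDC42BPA stood at 9.16 and 9.22 in mock and at 9.45 and 9.48 in treated cells. In both genes the groups were well separated on the arrays. RHOT2, the other mitochondrial GTPase of this kind, stood at -0.10 ± 0.07.

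Among the 16 kinesin adaptors and other kinesins tested, 8 were above 0 and 8 below (median -0.0029). MAPK8IP1, a scaffold that links cargo to conventional kinesin, had the largest difference of any partner, -0.59 ± 0.14. It stood at 5.61 and 5.60 in mock and at 5.20 and 4.82 in treated cells (limma adjusted p = 0.196). The treated arrays were lower but far from each other. The minus-end-directed kinesin KIFC3 stood at 0.24 ± 0.06, from 4.66 and 4.63 to 4.89 and 4.87. Of the 16, 4 were lower at an unadjusted p under 0.05 (25.0%, beside 8.42% of all genes): MAPK8IP1, RHOT1, MAP7D2 and FEZ2. The difference between lists was not tested.

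Dynactin, the complex that makes dynein processive, was tested through 7 subunits, 5 above 0 and 2 below (median 0.06). DCTN6 stood at 0.22 ± 0.08, from 9.33 and 9.32 to 9.46 and 9.64, and ACTR10, another subunit at the pointed end of the complex, at 0.14 ± 0.11. Of the 15 dynein regulators and adaptors, 8 were above 0 and 7 below (median 0.02). NDEL1, which loads dynein together with the product of PAFAH1B1, stood at 0.25 ± 0.08, from 8.55 and 8.49 to 8.68 and 8.85 (limma adjusted p = 0.274). The cargo adaptor BICD2 stood at 0.20 ± 0.08.

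The myosin light chain and regulator list had 10 tested genes, 6 above 0 and 4 below (median 0.07), with the light chain kinase MYLK2 at 0.25 ± 0.13. Genes for assembly and small chains of axonemal dynein were split, 4 above 0 and 4 below (median 0.02). DNAAF11 stood at 0.25 ± 0.07 and DNAAF8 at -0.34 ± 0.16, both involved in building axonemal dyneins.

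**Figure D4:**
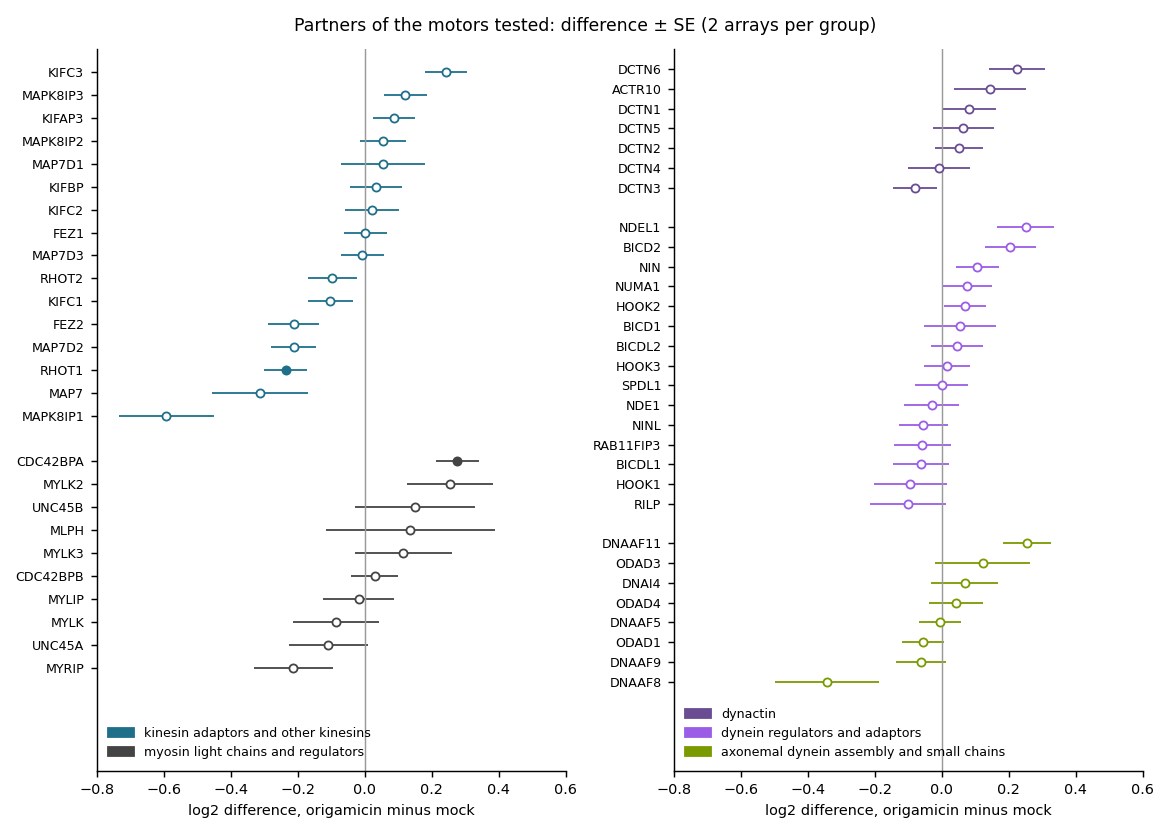
Log2 difference (origamicin minus mock, x axis) ± SE from limma of the 56 partner genes tested, over 2 arrays per group. Filled points passed an adjusted p of 0.05 in the fit with an intensity trend: RHOT1 at -0.24 and CDC42BPA at 0.28.

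Markers were read to check the cell type. All 16 noradrenergic neuroblastoma markers with a named probe set were above the filter, among them PHOX2A, HAND2, GATA3, DBH, CHGA and DDC. TH had the lowest values of the 16 (5.52 and 5.82 in mock). The filter was also passed by 14 of 15 mesenchymal, 8 of 9 Schwann cell and glial and all 9 multiciliated markers. Passing it therefore does not tell the cell type. The summed level of the 16 noradrenergic markers ran from 14.74 to 14.76 in mock and from 14.57 to 14.58 in treated cells. Of the 16, 14 were below 0, beside 52.1% of all genes tested. CHGA, CHGB, DDC, MAB21L1, EYA1 and ISL1 fell in the trend fit, by 0.80, 0.76, 0.59, 0.43, 0.35 and 0.30 on the log2 scale. The first 3 of these differences were larger in size than the difference of any motor gene but KIF1C. The genes called are 37.5% of the 16, beside 2.16% of all genes called lower by that fit. Of 14 mesenchymal markers tested, 11 were above 0, beside 47.8% of all genes tested. FOSL1, VIM, FN1 and SNAI2 rose in the trend fit (28.6% of the 14, beside 2.14% of all genes called higher). The marker calls were not read with an array left out. The summed level of the 14 mesenchymal markers ran from 11.24 to 11.25 in mock and from 11.41 to 11.46 in treated cells. Of 8 Schwann cell and glial markers tested, 5 were above 0, and their summed level ran from 7.76 to 7.78 in mock and from 7.84 to 7.87 in treated cells. No marker was listed at 0. These marker levels moved with the same 4 arrays as KIF1C, MYO9A and KIF16B, and their part in the motor values was not tested.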

How the data were processed

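RNA of 4 SH-SY5Y samples was hybridised, 1 array each, to the Human Gene 2.0 ST platform of Affymetrix, per the labels. The authors deposited normalized log2 values, 1 per probe set. The submitters' processing notes list RMA, which corrects background, equalizes array distributions and summarises probes, and limma. Versions, genome build and annotation: not given in the sources used here. Arrays carry no counting depth, so their number limits the precision.

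Of 53617 probe sets, 16098 carried exactly 1 gene symbol, and all matched RefSeq by gene identifier. The test was a two-sided limma comparison (limma 3.58.1, R 4.3.3; lmFit and eBayes, single prior variance, no covariate) over all 11883 genes above the 40th percentile of the means. The alternatives tried changed the filter (none, 60th percentile), the scaling (equal medians, quantiles), the probe set rule (means), the variance model (intensity trend, robust), the design (replicate block), the threshold (0.1, 0.01) and the arrays (each left out). The trend fit without each array was added after seeing the data. Motor genes were picked for full description as the 4 with the smallest p per role, plus those called with the trend; partners as the 2 with the smallest p per list, plus those called. Genes named outside this rule were chosen after their values were seen. The members and lists were chosen with earlier results of these data known.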

Additional observations from a re-analysis of the deposited data

How the results depend on the processing

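With a single prior variance, 0 of 64 motor genes, 0 partners and 0 of 11883 genes passed an adjusted p of 0.05 in limma. The same counts of 0 came with the replicate block, no filter, equal medians, quantile normalization, probe set means, robust eBayes and each array left out. At an adjusted p under 0.1 the counts were 1 motor gene (KIF1C) and 53 genes in all. With the 60th percentile filter, which tested 9269 genes, they were 1 (KIF1C, limma adjusted p = 0.0329) and 92, and with an intensity trend 3 motor genes, 2 partners and 511 genes. The trend fit without 1 array called 1 to 4 motor genes, 0 partners and 58, 60, 196 or 323 genes, with the fewest without mock replicate 2. Those fits use fewer samples.

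Motor genes at an unadjusted p under 0.05 numbered 11 (8 higher, 3 lower; 1950 over all genes) and 9 to 12 under the alternatives that kept all arrays. Leaving out 1 array gave 4 to 8 (4 to 6 higher, 0 to 2 lower), with 1261 to 1669 over all genes. The lowest count, 4, came without mock replicate 2, and the cause was not tested. In the trend fit without 1 array there were 7 to 13 (6 to 10 higher, 1 to 4 lower). Cargo kinesins above 0 numbered 18, and 15 to 20 over all alternatives.

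Over the 11883 genes tested, same-numbered arrays did not deviate together from their group means (correlation -0.0226). Whether the motor genes alone share a replicate effect was not tested. The replicate block lowered the SE of some motor genes (KIF13B from 0.091 to 0.067) and raised that of others (KIF19 from 0.084 to 0.094). The replicate block left 9 motor genes at an unadjusted p under 0.05, losing KIF1A and MYO5C.

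Small differences changed sign. With equal medians DYNC2I1 stood at -0.015, DYNC2I2 at -0.0083, KIF14 at -0.0045, KIF18B at -0.011 and MYO6 at -0.0089. With quantile normalization KIF21A stood at 0.018, KIF2A at 0.00050, KIF4B at 0.00097, KLC1 at 0.0022 and MYO18A at 0.0088. KIF1B stood at -0.017 as the mean of its probe sets. Without 1 array, 25 genes crossed 0: DYNC2I1 (-0.057 to 0.060), DYNC2I2 (-0.036 to 0.052), DYNLT4 (-0.099 to 0.14), KIF13A (-0.050 to 0.11), KIF14 (-0.032 to 0.056), KIF17 (-0.064 to 0.19), KIF18B (-0.030 to 0.041), KIF1B (-0.0078 to 0.094), KIF20B (-0.12 to 0.00097), KIF25 (-0.029 to 0.32), KIF2A (-0.056 to 0.011), KIF2B (-0.13 to 0.030), KIF3A (-0.077 to 0.0054), KIF4A (-0.049 to 0.084), KIF4B (-0.054 to 0.051), KIF6 (-0.23 to 0.16), KIF9-AS1 (-0.094 to 0.065), KLC1 (-0.0064 to 0.0058), KLC3 (-0.17 to 0.46), MYO18A (-0.040 to 0.029), MYO19 (-0.091 to 0.050), MYO1C (-0.086 to 0.0088), MYO1E (-0.10 to 0.069), MYO5B (-0.031 to 0.43) and MYO6 (-0.073 to 0.087).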
